A study of Mus musculus with 14 samples.

Results

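In kidneys of ACSS2-/- mice after unilateral ureteral obstruction (UUO), histone H3 lysine 9 crotonylation (H3K9cr) was compared with acetylation of the same lysine (H3K9ac), and places carrying 1 of the marks without the other were sought. A gene was taken as H3K9cr-only when both H3K9cr peak lists held a peak within 3 kb of either end of the gene and neither H3K9ac list did, and as H3K9ac-only in the opposite case. Of 49943 RefSeq genes, 891 (1.78%) were H3K9cr-only and 68 (0.136%) were H3K9ac-only, while 14739 (29.5%) had a peak of both marks in all 4 lists. The same rule was applied to genome regions, made by merging the overlapping peaks of the 4 lists. Of 45438 regions, 4430 (9.75%) were H3K9cr-only, 235 (0.517%) were H3K9ac-only and 12646 (27.8%) carried both marks in all 4 lists. These counts are set by the rule and are given as a description, without a test. With equal numbers of the longest peaks per list, the order of the gene counts was opposite (387 H3K9cr-only and 509 H3K9ac-only genes).

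The study measured both marks by ChIP-seq, which sequences the DNA pulled down with an antibody, in whole kidneys, obstructed or not, of mice with and without Acss2. UUO is the ligation of a ureter that leads to fibrosis of that kidney. Of 14 peak lists, 4 came from ACSS2-/- UUO kidneys, 2 for H3K9cr and 2 for H3K9ac. The other 10 came from wild-type (WT) control, ACSS2-/- control and WT UUO kidneys, 6 of H3K9cr and 4 of H3K9ac. The ACSS2-/- mice lacked the gene in the whole body through CRISPR/Cas9 deletion, so that every cell type of these kidneys was without it, and the mice were young adults. The antibodies were from PTM (H3K9cr) and Active Motif (H3K9ac), and the labels give each group its own catalogue number for each antibody. These numbers run on consecutively from group to group, which may be an error of entry. The paper's methods do not separate antibodies by group. If the labels hold, antibody and group cannot be told apart in comparisons between groups. Since each mark had its own antibody, differences between antibodies and between marks cannot be told apart either. In whole kidney, fewer cells of a type and less of a mark per cell cannot be told apart.

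Acetylation and crotonylation of H3K9 neutralise the charge of the same lysine tail, and both are found at active promoters and enhancers. They are placed by overlapping enzymes, such as p300, from acetyl-CoA and crotonyl-CoA, and read by bromodomain, YEATS and related proteins. ACSS2 is an acyl-CoA synthetase that makes acetyl-CoA from acetate and can make crotonyl-CoA from crotonate, and in the kidney tubule fatty acid oxidation is another source of both.

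The start-site windows that lay in peaks of only 1 mark show the kind of sequence under these peaks. Windows of 300 bases (250 before to 50 after the start site) were taken from RefSeq for GRCm38.p6, and 7 protein-coding H3K9cr-only genes and 1 H3K9ac-only gene had a window lying wholly inside peaks of both lists of their mark. From the H3K9cr-only genes, 3 are shown, all on the + strand: Ttc22 (chr4:106622199-106622498), with the longest peaks, Ksr2 (chr5:117413752-117414051), a scaffold of Ras signalling, and Map2 (chr1:66175079-66175378), a microtubule protein of neurons. Of the H3K9ac-only genes, Macrod2 (chr2:140395180-140395479), an enzyme that removes ADP-ribose from proteins, is shown with Mns1 (chr9:72438279-72438578), a protein of cilia and flagella whose window lay in part inside the peaks. Capitals mark matches on either strand to the GC box (GGGCGG) and the CCAAT box (CCAAT).

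Ttc22: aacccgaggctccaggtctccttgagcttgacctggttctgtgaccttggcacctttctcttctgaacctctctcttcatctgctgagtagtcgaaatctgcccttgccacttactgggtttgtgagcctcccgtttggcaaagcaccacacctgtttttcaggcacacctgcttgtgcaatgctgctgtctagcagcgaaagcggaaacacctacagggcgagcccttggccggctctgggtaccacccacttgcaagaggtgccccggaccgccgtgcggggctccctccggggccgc

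Ksr2: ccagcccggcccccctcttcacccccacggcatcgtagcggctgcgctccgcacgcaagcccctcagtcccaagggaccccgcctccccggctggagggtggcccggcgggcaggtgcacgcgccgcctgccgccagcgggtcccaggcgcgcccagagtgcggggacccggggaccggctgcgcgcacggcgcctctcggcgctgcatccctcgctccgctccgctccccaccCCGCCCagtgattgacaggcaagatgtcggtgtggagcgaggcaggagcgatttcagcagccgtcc

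Map2: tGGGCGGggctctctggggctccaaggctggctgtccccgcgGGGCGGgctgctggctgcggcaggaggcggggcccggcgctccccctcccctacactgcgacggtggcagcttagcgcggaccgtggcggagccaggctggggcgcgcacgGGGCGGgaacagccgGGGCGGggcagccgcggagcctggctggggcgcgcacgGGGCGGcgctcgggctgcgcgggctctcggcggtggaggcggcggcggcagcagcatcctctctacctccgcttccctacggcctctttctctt

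Macrod2: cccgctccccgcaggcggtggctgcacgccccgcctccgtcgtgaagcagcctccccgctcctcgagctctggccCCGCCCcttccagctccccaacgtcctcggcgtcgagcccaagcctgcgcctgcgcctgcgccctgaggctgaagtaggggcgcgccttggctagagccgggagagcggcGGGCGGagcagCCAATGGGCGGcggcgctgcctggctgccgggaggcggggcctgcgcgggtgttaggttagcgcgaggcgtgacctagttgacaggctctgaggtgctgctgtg

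Mns1: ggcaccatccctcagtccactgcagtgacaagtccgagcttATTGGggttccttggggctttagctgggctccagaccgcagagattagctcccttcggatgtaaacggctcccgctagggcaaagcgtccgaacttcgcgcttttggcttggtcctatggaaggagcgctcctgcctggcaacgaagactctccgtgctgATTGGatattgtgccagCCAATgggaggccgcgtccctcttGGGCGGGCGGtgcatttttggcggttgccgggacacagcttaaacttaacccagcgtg

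The Map2 window held 5 GC boxes and the Ksr2 window 1, while the Ttc22 window held none of the motifs searched. The Macrod2 window held 1 CCAAT box and 3 GC boxes, and the Mns1 window 3 CCAAT boxes and 2 GC boxes. Of all 32851 windows, 35.7% held a GC box and 37.4% a CCAAT box, so such matches are common in windows of this length.

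The H3K9cr-only genes included 16 microRNA genes with a Mir symbol (1.34% of 1193, against 1.78% of all genes). Those of the miR-34, miR-199 and miR-375 families are shown as mature sequences from RefSeq, with the seed (bases 2 to 8) in capitals. The miR-34 family is known for its induction by p53.

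miR-34b-3p: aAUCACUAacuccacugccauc

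miR-34c-3p: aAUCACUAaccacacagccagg

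miR-199a-3p: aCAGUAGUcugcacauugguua

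miR-199a-5p: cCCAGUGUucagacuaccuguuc

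miR-375-5p: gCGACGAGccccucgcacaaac

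The 3p arms of miR-34b and miR-34c share a seed. The 5p arm of miR-34b, which is not printed, has a different seed (GGCAGUG). Their genes, Mir34b and Mir34c, lie side by side on chromosome 9 and were marked by the same H3K9cr peaks, of 360 and 457 bp. At Mir199a-1 the longest H3K9cr peaks were 1497 and 471 bp, and at Mir375 421 and 556 bp, so that none of these was marked by a long peak in both lists. No gene with a Mir symbol of the 1193 was H3K9ac-only, against 0.136% of all genes, while 217 (18.2%) carried both marks, against 29.5% of all genes. The microRNA gene Gm38671, which has no Mir symbol, was H3K9ac-only (323 and 383 bp).

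The lists gave positions of peaks only, so read depth and signal height are unknown and the length of a peak was the only size measured. The H3K9cr lists held 35638 and 27530 peaks and the H3K9ac lists 17271 and 24571, covering 39.7, 29.4, 19.3 and 30.9 Mb. The number of peaks was higher in both H3K9cr lists, by 0.60 on the log2 scale, which in 2 lists against 2 gave an exact permutation p of 0.33 (two-sided), the smallest possible. H3K9cr replicate 1 and H3K9ac replicate 2 had 14 and 13 peaks on the Y chromosome and none at Xist, while the other lists had no peak on Y and Xist peaks of 1319 bp (H3K9cr replicate 2) and 1637 bp (H3K9ac replicate 1). The peak names also give the same mouse number to H3K9cr replicate 1 and H3K9ac replicate 2. In this group replicate numbers therefore go against these marks of the individual mouse, and the main tests used no pairing by number. In each list 18 to 24 of 30 proximal tubule genes had a peak, against 3 to 5 of 30 neural genes. Of all 21887 protein-coding genes, 13478 and 12899 had a peak in the H3K9cr lists and 11846 and 13130 in the H3K9ac lists. The neural genes were thus far under the share over all protein-coding genes, and the proximal tubule genes not far above it.

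The genes that the study centres on were not among those with a single mark. Acss2 carried both marks, with longest peaks of 799 and 1583 bp for H3K9cr and 760 and 1229 bp for H3K9ac, which are positions of a mark and say nothing of whether the protein is made. At Il1b, the gene of the inflammatory cytokine IL-1β, only H3K9cr replicate 1 had a peak, of 1645 bp, and the other 3 lists had none. No H3K9ac list of any group had a peak at Il1b, whereas both WT UUO H3K9cr lists did, of 390 and 513 bp. At Il1r1, its receptor, peaks of 1328 and 917 bp for H3K9cr stood beside 993 bp in H3K9ac replicate 2 and no peak in H3K9ac replicate 1. Neither gene met the rule, since the lists of a mark differed between replicates.

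Regions with both marks in all 4 lists were the largest class, and the next largest were regions with a peak in a single list. H3K9cr replicate 1 alone gave 11777 regions, H3K9cr replicate 2 alone 4622 and H3K9ac replicate 2 alone 4521, so each of these was larger than the class of 4430 H3K9cr-only regions. A further 2935 regions had a peak in every list except H3K9ac replicate 1, the shortest list. Leaving out this list raised the H3K9ac-only regions from 235 to 4804 and the H3K9ac-only genes from 68 to 598, and leaving out H3K9ac replicate 2 gave 1561 and 165. Without H3K9cr replicate 1 there were 651 such regions and 271 such genes, and without H3K9cr replicate 2 there were 368 and 124. The H3K9cr-only regions numbered 16559 without H3K9cr replicate 2, 9702 without H3K9cr replicate 1, 7458 without H3K9ac replicate 2 and 4709 without H3K9ac replicate 1, and the H3K9cr-only genes 2196, 1349, 2261 and 1001. A rule that asks less of the lists finds more members by construction.

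The excess of H3K9cr-only over H3K9ac-only members depended on the number of peaks per list. With the longest 17271 peaks of each list, as many as the shortest list holds, there were 1471 H3K9cr-only and 778 H3K9ac-only regions, but 387 H3K9cr-only against 509 H3K9ac-only genes. The order of the gene counts was thus opposite to that with all peaks, and no statement on which mark is more often alone at genes holds under both.

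**Figure D1:**
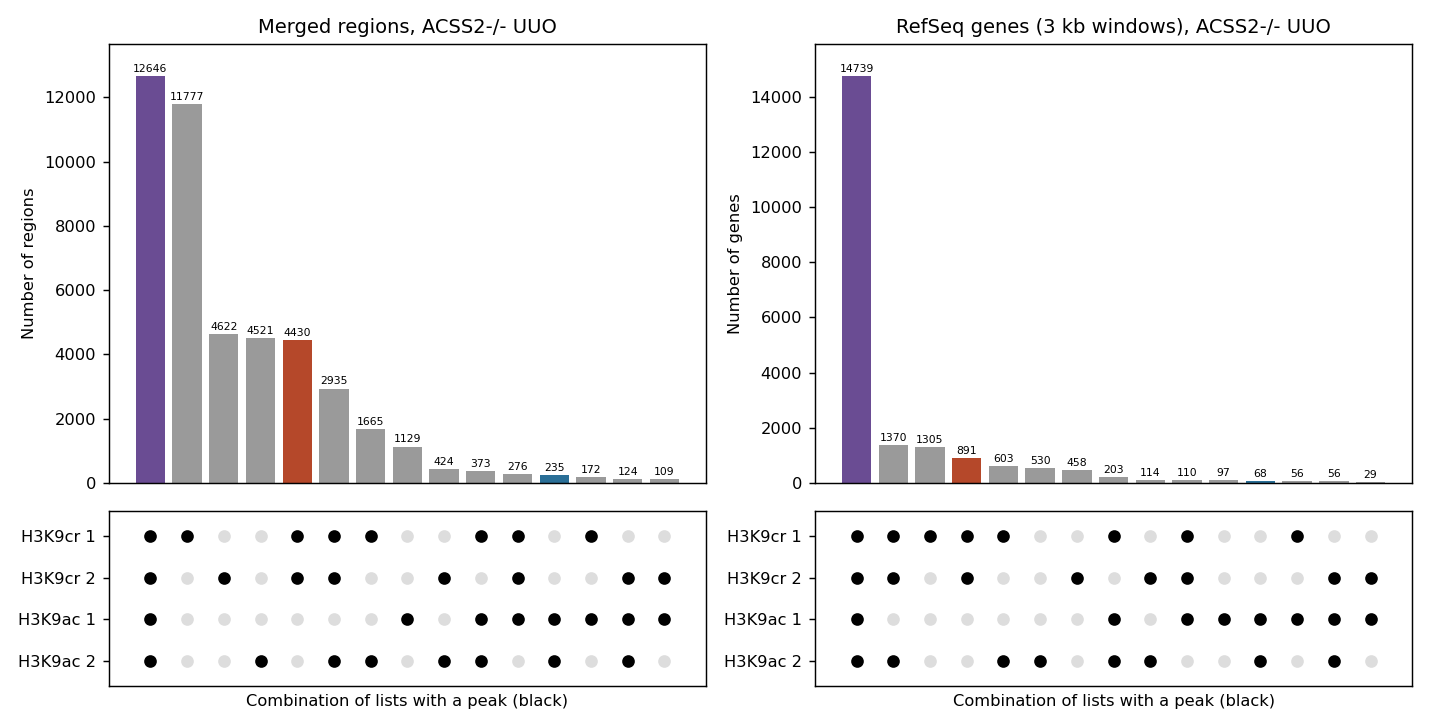
Number of merged regions (left) and RefSeq genes (right) for each combination of the 4 ACSS2-/- UUO lists holding a peak, with filled circles below each bar marking those lists. Both marks in all 4 lists (purple) was the largest class in both panels, with 12646 regions and 14739 genes, and H3K9cr-only (red, 4430 and 891) exceeded H3K9ac-only (blue, 235 and 68), an order that is opposite for genes with equal numbers of peaks per list (387 and 509).

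Regions with a single mark lay away from start sites. Only 5.08% of H3K9cr-only regions overlapped a start-site window, compared with 9.79% of H3K9ac-only regions, 64.5% of regions with both marks and 21.9% of all regions. H3K9cr-only regions were found inside genes more than 3 kb from their ends (41.1%) or outside genes (27.4%), while 49.8% of H3K9ac-only regions lay within 3 kb of a gene end without touching a start-site window and 5.96% lay outside genes. Within 3 kb of a gene end were 31.4% of H3K9cr-only regions (1393 of 4430, 95% Wilson interval 30.1 to 32.8) and 59.6% of H3K9ac-only regions (140 of 235, 53.2 to 65.6), against 87.2% of regions with both marks and 49.7% of all regions. These intervals cover counting error only and treat regions as independent. Leaving out H3K9ac replicate 1 lowered the H3K9ac-only share to 41.6%, and the H3K9cr-only share without any 1 list stayed between 29.7% and 38.9%.

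**Figure D2:**
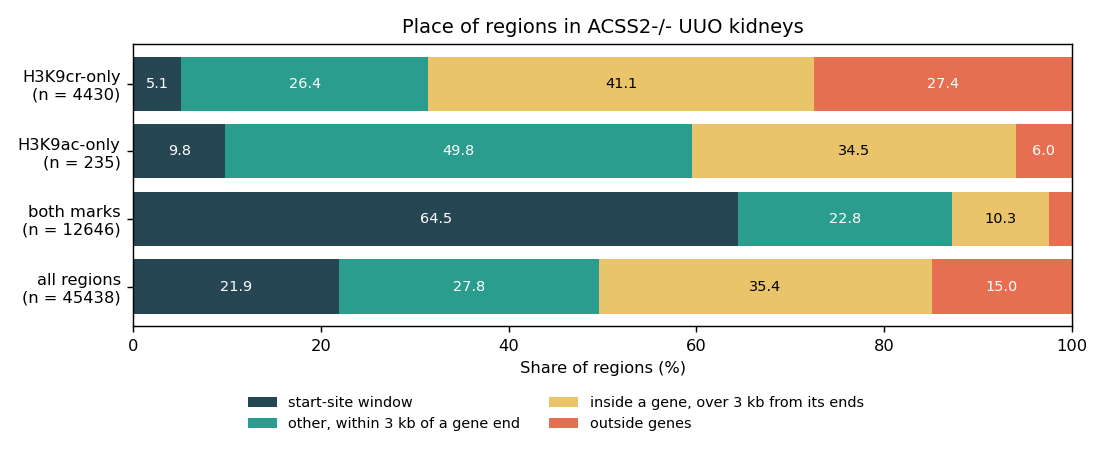
Place of H3K9cr-only, H3K9ac-only, both-mark and all regions as a share of regions (%), from start-site window to outside genes. The start-site part was 64.5% for regions with both marks and 5.08% for H3K9cr-only regions, and the part outside genes, 27.4% for H3K9cr-only regions, was 5.96% for H3K9ac-only and 2.44% for both-mark regions (not labelled).

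H3K9ac-only regions often lay next to H3K9cr. The nearest H3K9cr peak was within 1 kb of 95 (40.4%) of them, at a median distance of 1472 bp, while the nearest H3K9ac peak was within 1 kb of 482 (10.9%) H3K9cr-only regions, at a median of 10704.5 bp, and more than 10 kb away from 2288 (51.6%). The H3K9cr lists held more peaks, so a short distance to H3K9cr is more easily met. Peaks in these regions were short, with medians of 713.5 and 569 bp in H3K9cr-only regions and 428 and 552 bp in H3K9ac-only regions, against 1050 to 1571 bp over the 4 lists where both marks were present.

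The longest regions with H3K9cr alone were also marked by H3K9cr in the other groups. Away from gene ends, the 2 longest, of 5596 and 4937 bp, lay in Tpcn2, a channel gene of lysosomes (chr7:145230174-145235769 and chr7:145238391-145243327). The third, in the non-coding gene Gm38906 (chr6:129213895-129218764), had 4686 and 2762 bp of H3K9cr, and the next, both outside genes, were chr14:8329439-8333938 (2685 and 3988 bp) and chr2:173170555-173174973 (2644 and 4177 bp). All 6 other H3K9cr lists had a peak at each of the 5, and H3K9ac was found in 2 of the 4 other H3K9ac lists except at Gm38906, where it was in none. The longest region near a gene end was at Gm34627 (chr17:43104741-43111333), where H3K9cr covered 4543 and 5691 bp.

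Among H3K9ac-only regions away from gene ends, the longest was in Cic, a transcriptional repressor gene (chr7:25274084-25276250, 849 and 1749 bp), and the second in Plxnd1, a semaphorin receptor gene (chr6:115984766-115986533, 505 and 1768 bp). The third lay in Slc34a1, the main phosphate transporter gene of the proximal tubule (chr13:55403311-55404926, 1400 and 1616 bp), followed by Hnrnpf (chr6:117920523-117922008, 1053 and 493 bp) and Tnks1bp1 (chr2:85051455-85052836, 322 and 1093 bp). H3K9cr was present in 4, 5 and 4 of the 6 other lists at the first 3 and in none at the last 2. Near gene ends the longest lay at Top3a and Smcr8 (chr11:60779284-60782195, 1844 and 2690 bp).

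Most H3K9cr-only genes did not code for proteins. Long non-coding RNA genes made up 499 (56.0%) of the 891 and protein-coding genes 266 (29.9%), so that 3.92% of all annotated lncRNA genes and 1.22% of all protein-coding genes were H3K9cr-only. Of the 68 H3K9ac-only genes, 38 (55.9%) were protein-coding and 19 (27.9%) lncRNA, and of the genes with both marks 78.0% were protein-coding. The remaining H3K9cr-only genes were 73 pseudogenes, 18 miRNA, 17 snRNA, 6 snoRNA, 2 tRNA genes and 10 of other types. Overlapping genes share peaks, so a gene count is not a count of separate places.

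Not every gene of these classes lay beside a region of the same class. Of the H3K9cr-only genes, 725 (81.4%) had such a region, 46 (5.16%) were reached by the H3K9cr part of a region whose H3K9ac part ended outside the 3 kb window, and 120 (13.5%) had peaks in different regions in the 2 lists. For H3K9ac-only genes the numbers were 46 (67.6%), 15 (22.1%) and 7 (10.3%). A peak of the other mark within 1 kb outside the window was present at 89 (9.99%) H3K9cr-only and 27 (39.7%) H3K9ac-only genes. These are the members just inside the limit. Just outside it, with the other mark nearest at 2 to 3 kb, were 540 genes with H3K9cr in both lists and 297 with H3K9ac in both lists.

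Among the protein-coding H3K9cr-only genes, the 12 with the longest peaks had 1335 bp or more in both lists. Csf2ra, the α chain of the GM-CSF receptor (chr19:61217191-61228461), carried H3K9cr peaks of 2798 and 2561 bp, and the nearest H3K9ac peak lay 13817 bp outside its window. It had H3K9cr in all 8 lists of the series and H3K9ac in none of 6. Hrh2, the histamine H2 receptor (chr13:54191970-54236182), had 2064 and 1335 bp, with H3K9ac 14365 bp away. Fam107b (chr2:3704812-3782142) had 2421 and 2110 bp, Gm7932 2442 and 1577 bp, and Ttc22 (chr4:106622449-106640196), whose start site is printed above, 1434 and 1516 bp. At these 5 genes the mark was within 1 kb of a gene end in both lists. Arhgef10 had 2294 and 1385 bp, and Aqp7, a water and glycerol channel of the proximal tubule, 1570 and 1357 bp, in both cases more than 1 kb from the gene ends in at least 1 list.

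At the other 5 genes the H3K9cr peak was part of a region that also held H3K9ac, just outside the window. They were Sez6, a neuronal gene (4156 and 4352 bp), Aldh3b2, an aldehyde dehydrogenase (3691 and 3403 bp), Poli, a DNA polymerase of lesion bypass (2675 and 2721 bp), Itgb6, the β6 integrin subunit that activates latent TGF-β in injured epithelium (1863 and 4195 bp), and Lgals8, galectin-8 (1834 and 1657 bp). At Lgals8 the H3K9ac peak ended 2 bp outside the window and at Poli 475 bp. For these genes the class rests on the 3 kb limit. By the shorter of the lists' longest peaks, the first of all H3K9cr-only genes was the non-coding Gm35338 (chr11:94140394-94172671), with 5875 and 5374 bp and the nearest H3K9ac peak 5585 bp from the window. Gm39820, 1700025H01Rik, Gm36599 and Gm35165 followed with 2855 to 7210 bp, all from regions shared with H3K9ac outside the window.

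**Figure D3:**
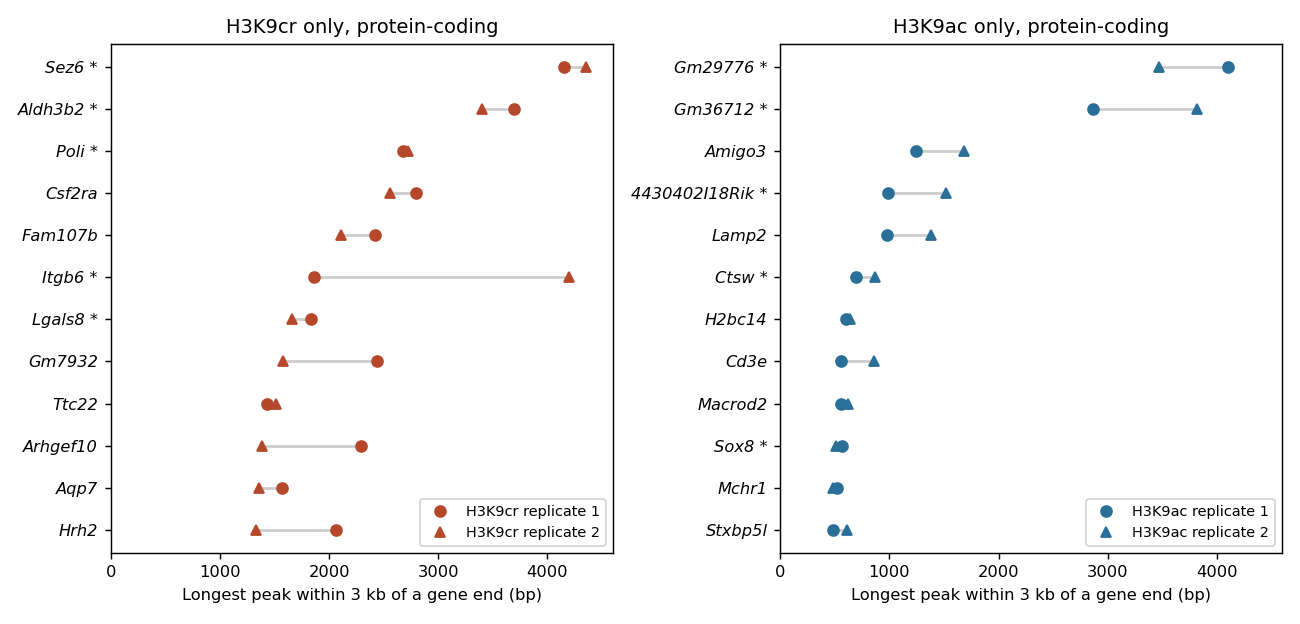
Longest peak (bp) within 3 kb of either gene end in each replicate at the 12 protein-coding H3K9cr-only genes (left) and the 12 H3K9ac-only genes (right) with the longest peaks, where * marks genes without a region of that class. All 12 H3K9cr-only genes reached 1335 bp in both lists, while 9 of the 12 H3K9ac-only genes stayed under 1000 bp in at least 1 list, and the longest ones, Gm29776 and Gm36712, carry the *. The 12 were taken from 266 H3K9cr-only and 38 H3K9ac-only genes, and a larger class has longer extremes by construction.

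The first 12 protein-coding H3K9ac-only genes mostly had shorter peaks, but they were taken from 38 genes and the 12 above from 266. Over the whole classes, the shorter of the lists' longest peaks had a median of 450 bp at H3K9ac-only and 508 bp at H3K9cr-only genes. It was 1 kb or longer at 12 of 68 and 125 of 891 genes. Gm29776 (4105 and 3465 bp), Gm36712 (2862 and 3816 bp) and 4430402I18Rik (986 and 1515 bp) were marked by regions shared with H3K9cr, which ended 232, 159 and 148 bp outside the window. Lamp2, a membrane protein of lysosomes (chrX:38399647-38456460), had H3K9ac peaks of 975 and 1385 bp and no H3K9cr peak within 13604 bp of its window. Yet all 6 other H3K9cr lists had a peak at Lamp2, of 813 to 1715 bp, so the absence was seen in this group and not in the others. Amigo3, a neuronal adhesion protein, had 1245 and 1684 bp, with H3K9cr 163 bp outside the window.

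Cd3e, a chain of the T cell receptor complex (chr9:44998735-45009663), had H3K9ac peaks of 561 and 864 bp, with H3K9cr 9171 bp away. No control list of either mark had a peak at Cd3e, and in WT UUO the H3K9cr lists had peaks of 506 and 1502 bp and the H3K9ac lists 0 and 1070 bp. Ctsw, a cathepsin of cytotoxic lymphocytes, had 694 and 871 bp, and Il12rb2, the β2 chain of the IL-12 receptor, 326 and 353 bp. Both also had H3K9cr in the 2 WT UUO lists, of 550 and 888 bp at Ctsw and 507 and 985 bp at Il12rb2, so these lymphocyte genes carried H3K9cr in obstructed WT kidneys. H2bc14, a histone H2B gene, had 599 and 640 bp from the region that also marked the neighbouring pseudogene H2ac14 (712 and 640 bp). Macrod2 (555 and 619 bp), Sox8, a transcription factor gene (571 and 508 bp), Mchr1, the receptor of melanin-concentrating hormone (518 and 488 bp), and Stxbp5l, which binds syntaxin (487 and 612 bp), made up the 12. The non-coding H3K9ac-only genes with the longest peaks, Gm17814, 8030431J09Rik, Gm10250, Gm5922 and Gm22027, had 2176 to 4053 bp and all lay in regions shared with H3K9cr.

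The marker genes of kidney cells mostly carried both marks or an uneven pattern. Of 30 proximal tubule genes, 13 carried both marks, 2 had no peak, Hnf4a was H3K9cr-only and Slc5a12 was H3K9ac-only. Hnf4a, a transcription factor that sets proximal tubule identity, had H3K9cr peaks of 1308 and 733 bp, and no H3K9ac list of any group had a peak within 3 kb of either end of the gene. Slc5a12, a lactate transporter of the proximal tubule (chr2:110597299-110649345), had H3K9ac peaks of 880 and 362 bp. In control kidneys both marks had been present at Slc5a12, with peaks of 1925 to 5591 bp, and in WT UUO no list of either mark had a peak. Slc6a19os, beside the amino acid transporter gene Slc6a19, was alike in part, with H3K9ac peaks of 1403 and 364 bp here and 2720 to 4780 bp over both marks in the control lists.

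Of 30 distal nephron and collecting duct genes, 13 carried both marks and Cldn16, a claudin of the thick ascending limb, was H3K9cr-only (328 and 670 bp, in different regions). Of 30 injured tubule genes, 20 carried both marks and Itgb6 was H3K9cr-only. Of 30 T, B and NK cell genes, 6 carried both marks, Cd4 was H3K9cr-only (552 and 675 bp) and Cd3e H3K9ac-only. None of the 16 podocyte, 20 endothelial, 30 stroma and 30 macrophage, dendritic cell and neutrophil genes was in either class, and 10, 13, 12 and 13 of them carried both marks. Over all protein-coding genes, 266 of 21887 were H3K9cr-only and 38 H3K9ac-only, so 1 or no member in lists of this size is near the background. Both marks were carried by 52.6% of all protein-coding genes.

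No pathway list tied to the study's question held a gene of either class. Over all protein-coding genes, 1.22% were H3K9cr-only, 0.174% were H3K9ac-only and 52.6% carried both marks. No member of either class in a list of this size is thus near the background. Both marks were carried by 27 of 30 genes of fatty acid oxidation and crotonyl-CoA, 33 of 38 writers, erasers and readers of histone acylation, 29 of 30 AP-1 and NF-kB genes, 27 of 30 senescence and cell cycle genes and 27 of 32 interferon response genes. Of 29 IL-1 family and inflammasome genes in the annotation, 15 (51.7%) carried both marks, 5 had no peak and 9 had other patterns. Nlrp3, the inflammasome sensor, had 853 bp in H3K9cr replicate 1 and 651 bp in H3K9ac replicate 2 only, the lists with the same mouse number in their names. Casp1, which cleaves pro-IL-1β, had 1037 bp in H3K9cr replicate 1 and 307 and 912 bp for H3K9ac. Il1rn, the IL-1 receptor antagonist, had no peak in these 4 lists. Of 236 cytokine and receptor genes, 82 (34.7%) carried both marks and 3 carried 1: Csf2ra and Ccl17 (848 and 661 bp), a chemokine for T cells, with H3K9cr, and Il12rb2 with H3K9ac.

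The larger gene families gave a few members each, with 1.32% of solute carriers and 0.962% of zinc finger genes H3K9cr-only. The shares over all protein-coding genes were 1.22% H3K9cr-only, 0.174% H3K9ac-only and 52.6% with both marks. The H3K9cr-only counts of these families are thus near the background. The H3K9cr-only solute carriers were Slc9a7 (971 and 746 bp), Slc22a13 (440 and 1072 bp), Slc28a1 (392 and 587 bp), Slc17a4 (521 and 375 bp) and Slc6a13 (915 and 373 bp), while 215 of 379 genes with this symbol carried both marks. Among 416 zinc finger genes, Zfp982 (872 and 924 bp), Zfp951 (754 and 1010 bp), Zfp469 (560 and 572 bp) and Zfp853 (713 and 482 bp) were H3K9cr-only and Zfp772 (471 and 672 bp) H3K9ac-only, against 313 with both marks. Of 78 histone genes 55 and of 90 ribosomal protein genes 82 carried both marks, and the pseudogene Rps4l was H3K9cr-only (691 and 424 bp). The 133 cytochrome P450 genes held 1 H3K9ac-only member, Cyp2w1 (387 and 298 bp), and 100 had no peak. Genes of other tissues were mostly without a peak, 23 of 30 neural and 20 of 30 germ cell genes, and those in the H3K9cr-only class were Map2 (673 and 791 bp), the neurofilament gene Nefh (779 and 380 bp) and Stra8, a gene of meiotic entry (912 and 425 bp). Stra8 had no peak in any of the other 10 lists. No Hox gene, protocadherin, olfactory or vomeronasal receptor, or immunoglobulin or T cell receptor segment was in either class.

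Start sites of H3K9cr-only genes held less CpG than those of all genes. The median CpG observed over expected of the start-site windows was 0.26 at H3K9cr-only genes (714 windows), 0.53 at H3K9ac-only genes (61 windows), 0.75 at genes with both marks, 0.21 at genes with no peak and 0.38 over all windows. The H3K9ac-only genes were thus above all windows, and 37.7% of their windows had a ratio of 0.6 or more, against 10.5% for H3K9cr-only genes and 35.8% of all. Most of these windows were not in a peak at all, namely 444 (62.2%) of the windows of H3K9cr-only and 33 (54.1%) of those of H3K9ac-only genes. Among windows that did lie in peaks of a single mark in both lists, the medians were 0.45 for H3K9cr (566 windows) and 0.62 for H3K9ac (62 windows), against 0.81 for 9450 windows in peaks of all 4 lists. The GC box was held by 17.9% of windows of H3K9cr-only, 44.3% of H3K9ac-only and 60.4% of both-mark genes, and the ETS motif (CCGGAAG) by 2.52%, 1.64% and 17.0%, against 8.86% of all windows. The motif GTTAATNAT of HNF1, a factor of tubule cells, was held by 2.38% of windows of H3K9cr-only genes (17 of 714) and 0.801% of all, and CAAAGTCCA, of HNF4, by 1.26% (9 of 714) and 0.475%. TATAAA, the TATA box, was held by 14.99% of H3K9cr-only windows and 13.6% of all. Further motifs searched were TGANTCA (AP-1), in 7.81% of all windows, and CACGTG (E-box), in 7.15%. A match is a description of letters and not evidence of binding. Gene types also differed between the classes, with lncRNA genes 56.0% of H3K9cr-only, 27.9% of H3K9ac-only and 15.3% of both-mark genes. The windows were not split by gene type.

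To find out whether the classes recurred where they had not been chosen, their members were looked up in the 10 lists of the other groups. H3K9cr peaks were present at 69.2% to 83.1% of the 891 H3K9cr-only genes in the 6 other H3K9cr lists, and H3K9ac peaks at 36.9% in WT control, 55.0% in ACSS2-/- control and 4.38% and 12.6% in WT UUO. The difference between marks, averaged over groups, was 42.3 percentage points (exact two-sided permutation test of the marks within groups, p = 0.0185, the smallest that its 54 arrangements give, adjusted p = 0.037 over 4 tests). It was 34.7 points in WT control, 23.5 in ACSS2-/- control and 68.6 in WT UUO, in the same direction in all 3 groups. The WT UUO H3K9ac lists were also short, with 15988 and 18580 peaks and a peak at 29.96% and 31.9% of all genes, so that their shares at H3K9cr-only genes were under the share over all genes. The control H3K9ac lists were not, with 36.9% against 34.9% of all genes in WT control and 55.0% against 38.2% in ACSS2-/- control. For the 4430 H3K9cr-only regions the difference was 46.8 points (p = 0.0185 by the same exact test, adjusted p = 0.037). Leaving out the only H3K9ac list of WT control or of ACSS2-/- control gave 46.04 and 51.7 points for genes and 48.9 and 54.2 for regions, each with the smallest exact p left (0.0556), and the WT UUO lists alone give no p under 0.33. With the replicate number as a block, the differences were 48.3 points for genes and 50.8 for regions. The exact sign-flip p was then 0.125 for each, the smallest this block gives, so neither was under 0.05. In these groups the peak names give the replicate 2 lists of both marks the same mouse number. The test within groups did not use this pairing.

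The H3K9ac-only classes did not pass the same test. At the 68 genes, H3K9ac was present at 70.6% in WT control, 82.4% in ACSS2-/- control and 36.8% and 51.5% in WT UUO, and H3K9cr at 38.2% to 57.4% over the 6 lists. Over all genes these shares were 34.9%, 38.2%, 29.96% and 31.9% for H3K9ac and 36.4% to 40.1% for H3K9cr, so each list of either mark had a higher share at the 68 genes than over all genes. The difference of H3K9cr minus H3K9ac was -18.1 points (exact permutation p = 0.0926, adjusted p = 0.0926), made of -31.6 points in WT control, -30.1 in ACSS2-/- control and 7.35 in WT UUO, where H3K9cr was the more frequent mark. For the 235 regions it was -18.5 points (exact permutation p = 0.0926, adjusted p = 0.0926), again with WT UUO in the opposite direction (7.23). When the classes were rebuilt with equal numbers of the longest peaks the differences were -45.7 points for genes and -42.2 for regions, each with an exact p of 0.0185. Genes with both marks had a peak at 95.1% to 99.7% in every one of the 10 lists.

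**Figure D4:**
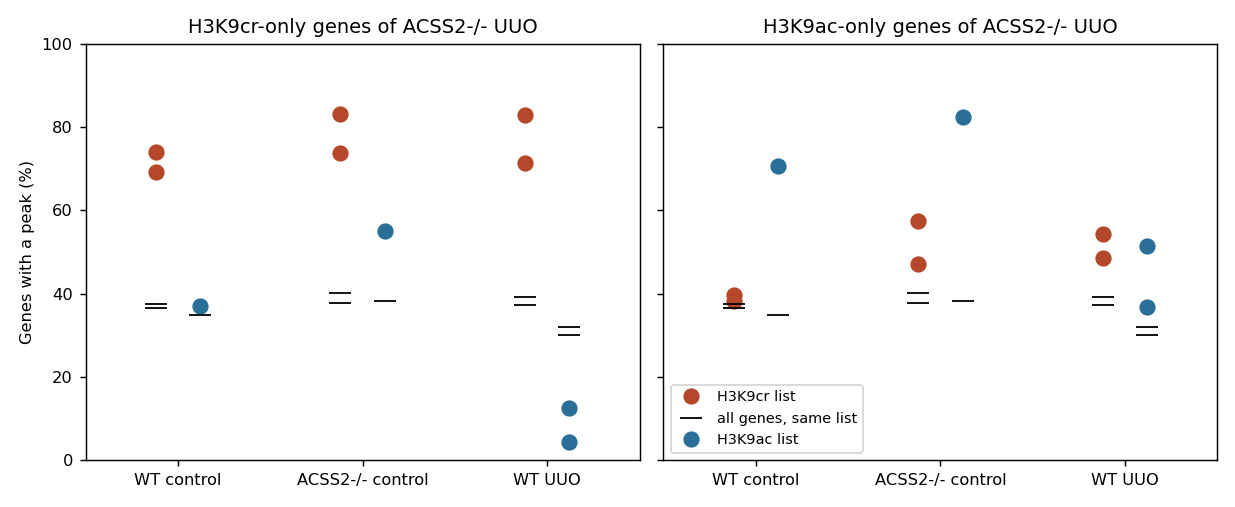
Share (%) of the 891 H3K9cr-only (left) and 68 H3K9ac-only genes (right) with a peak in each of the 10 lists of the other groups, 1 point per list, with dashes for all genes in the same list. H3K9cr lists lay at 69.2% to 83.1% in the left panel and H3K9ac lists at 4.38% to 55.0%, while in the right panel the order of the marks in WT UUO was opposite to that in the control groups.

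The H3K9cr-only genes were sorted by their peaks in the other groups. The rule already asks for H3K9cr and no H3K9ac in the lists of this group, so shares that count these lists are in part set by it. The share of all genes with each pattern was not computed, so these counts are descriptions. For 207 (23.2%) of them, 67 protein-coding, H3K9ac was present in both control lists and in neither WT UUO list, as at Aldh3b2, Fam107b, Ttc22, Arhgef10, Hrh2 and Ptgs1, the gene of cyclooxygenase 1 (1196 and 1599 bp of H3K9cr here). At Ptgs1 the H3K9ac peaks in control kidneys were 521 and 965 bp and those at Hrh2 994 and 1160 bp. For 318 (35.7%), 71 protein-coding, no H3K9ac list of any group had a peak, which included Hnf4a, Csf2ra, Ccl17, Nnmt, an enzyme of nicotinamide metabolism (929 and 765 bp), Calcr, the calcitonin receptor (743 and 674 bp), and Ren1, the renin gene (1404 and 891 bp). At Ren1 an H3K9ac peak of this group lay 309 bp outside the window. At 75 genes (8.42%), 8 of them protein-coding, H3K9cr was in all 8 lists and H3K9ac in none of 6: Poli, Csf2ra, Vxn, Pdcd1lg2, Samd7, Wdr95, Plaat1 and Sftpb.

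Among the 68 H3K9ac-only genes, 18 (26.5%) had H3K9ac in all 6 lists and 8 (11.8%) had H3K9cr in no list. Both shares are raised by the rule, which already asks for H3K9ac and no H3K9cr in the lists of this group. The same shares over all genes were not computed. Klb, the β-Klotho co-receptor of FGF signalling (chr5:65348411-65386957), was the only gene in both sets, with H3K9ac peaks of 336 and 3103 bp here and 2489 to 2717 bp in the other groups. Its peaks were part of a region that held H3K9cr 251 bp outside the window. Mns1, printed above, had H3K9ac in all 6 lists (424 and 695 bp here) and H3K9cr only in WT UUO replicate 2 (460 bp).

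Compared with WT UUO, where the same rule gave 1957 H3K9cr-only and 21 H3K9ac-only genes, 465 genes were H3K9cr-only in both genotypes, which was 52.2% of the ACSS2-/- class and 23.8% of the WT class. Over all 49943 genes, 14336 carried both marks in WT UUO, 4189 had other patterns and 29440 had no peak. Of the 891, 16 carried both marks in all WT UUO lists, 320 had other patterns, 90 had no peak and 0 were H3K9ac-only. Of the 68 H3K9ac-only genes, 6 were H3K9ac-only in WT UUO (8.82% of the 68 and 28.6% of the 21), 4 were H3K9cr-only, 12 carried both marks, 34 had other patterns and 12 had no peak.

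Where both marks were present, their peaks had nearly the same length. In 9423 regions with exactly 1 peak in each list, the median lengths were 1457 and 1294 bp for H3K9cr and 1143 and 1546 bp for H3K9ac, so the lists of the marks overlapped. The median over regions of log2 of mean H3K9cr length over mean H3K9ac length was -0.0012 (quartiles -0.23 and 0.28), and the difference of the lists' median log2 lengths was 0.047 (exact permutation p = 1). The replicates of a mark differed by more, with a median log2 ratio of 0.16 between the H3K9cr lists and 0.36 between the H3K9ac lists. Both H3K9cr peaks were longer than both H3K9ac peaks in 1759 regions (18.7%) and shorter than both in 1809 (19.2%). Without H3K9ac replicate 2 the median was 0.22, and without H3K9ac replicate 1 it was -0.12.

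The balance of lengths shifted with place. H3K9ac was the longer mark more often at start sites (22.2% against 14.4% of 6098 regions, median log2 ratio -0.04), above all at those with a CpG ratio of 0.6 or more (24.7% against 12.1% of 4927, median -0.07). At start sites with a ratio under 0.6 it was the opposite (11.6% against 24.3% of 1171, median 0.11). Away from gene ends the median was 0.23 (1135 regions, exact permutation p = 0.67), and in the 246 regions outside genes it was 0.57, with H3K9cr longer in 150 (61.0%) and H3K9ac in 6 (2.44%). The medians of the lists in these 246 regions were 1248.5 and 1064.5 bp for H3K9cr and 551.5 and 906.5 bp for H3K9ac, so both H3K9cr medians were above both H3K9ac medians. Length itself moved with this, as the median ratio was 0.15 in the 2356 regions with the shortest peaks and -0.09 in the 2356 with the longest, and its part in the pattern by place was not tested.

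**Figure D5:**
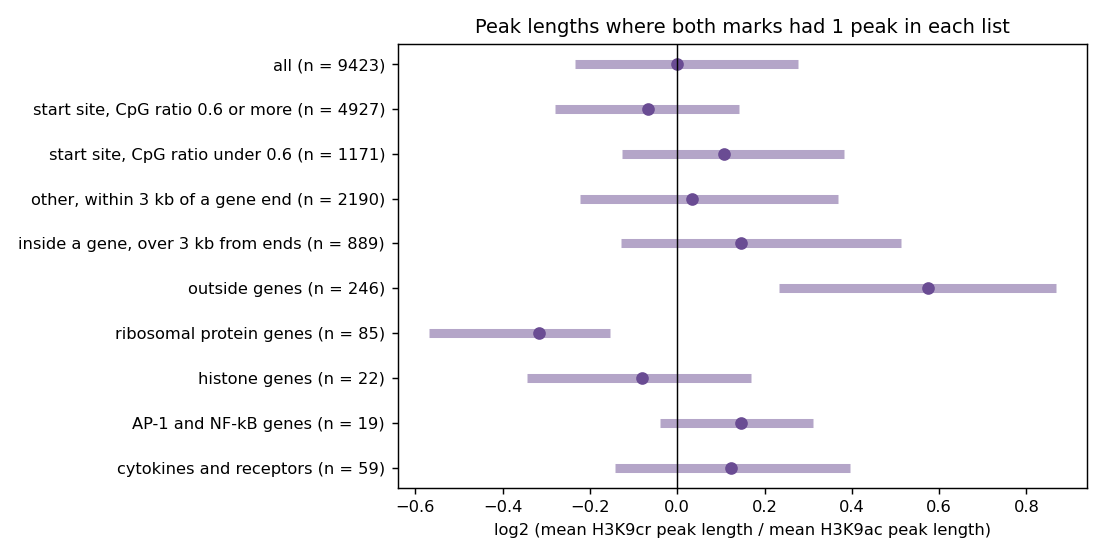
Median (point) and quartiles (bar) over regions of log2 of mean H3K9cr over mean H3K9ac peak length where each of the 4 lists had 1 peak, by place and gene group, with n regions. Among the groups plotted, regions outside genes had the highest median, 0.57, and ribosomal protein genes the lowest, -0.32.

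The most unequal lengths were larger in the direction of H3K9cr. At Lpar5, a receptor of lysophosphatidic acid (chr6:125087922-125090949), H3K9cr covered 2599 and 3014 bp and H3K9ac 304 and 353 bp, the largest such ratio (7.36 for the shorter H3K9cr over the longer H3K9ac length). Inside Gm33162 (chr3:101515291-101520059) the lengths were 4317 and 4472 bp against 601 and 567 bp, a ratio of 7.18. The third was at B230206L02Rik and Gm35338 (chr11:94158575-94162573), with 3948 and 3947 bp against 463 and 817 bp, beside the H3K9cr-only region of the same genes. In the other direction the ratios were smaller. At Uhrf1, which maintains DNA methylation, and Kdm4b, an H3K9 demethylase (chr17:56325987-56327863), H3K9ac covered 959 and 1877 bp and H3K9cr 377 and 329 bp, a ratio of 2.54. It was 2.46 at Gm13889 (2125 and 2588 bp against 605 and 863 bp), 2.42 at Sae1, of SUMO activation (1310 and 1418 bp against 541 and 476 bp), 2.39 at Cnot11, of the CCR4-NOT complex (1337 and 1360 bp against 558 and 559 bp), 2.25 at Scrib and Puf60 (2033 and 2387 bp against 903 and 823 bp), and 2.21 at Cd248, a gene of stromal cells (1011 and 1588 bp against 458 and 405 bp).

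Ribosomal protein genes stood on the side of H3K9ac. Their 85 regions had a median log2 ratio of -0.32, and H3K9ac was the longer mark in both lists in 45 (52.9%) against 3 (3.53%) for H3K9cr. The medians of the lists were 1812 and 1556 bp for H3K9cr and 1868 and 2328 bp for H3K9ac. H3K9ac replicate 1 was thus only slightly above H3K9cr replicate 1. At Rplp0 the lengths were 918 and 582 bp for H3K9cr and 1469 and 1795 bp for H3K9ac. At Rpl28 2 regions went opposite ways, with 1826 and 1944 bp for H3K9cr against 1148 and 1595 bp in 1 and 1853 and 1550 bp against 2110 and 2190 bp in the other. The 32 regions of histone acylation genes had a median of -0.10 (H3K9ac longer in 9, H3K9cr in 2), with Sirt4, a mitochondrial sirtuin, towards H3K9cr (1199 and 977 bp against 582 and 381 bp) and Hdac10, a deacetylase, towards H3K9ac (2195 and 2026 bp against 1396 and 1167 bp). The 26 regions of fatty acid oxidation genes had a median of 0.02, with H3K9ac longer in 7 and H3K9cr in 3.

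The AP-1, NF-kB and cytokine genes had more regions with longer H3K9cr than with longer H3K9ac. The 19 regions of AP-1 and NF-kB genes had a median of 0.15, with H3K9cr longer in 5 and H3K9ac in 2, and the 59 of cytokines and receptors 0.12, with 12 and 6. At Maff, a small Maf factor, H3K9cr had 1111 and 2086 bp and H3K9ac 565 and 583 bp. At 1 of the regions of Rela, the p65 subunit of NF-kB, it was 1369 and 1860 bp against 724 and 546 bp, while the other went the opposite way (1932 and 1808 bp against 2022 and 2537 bp). The 26 regions of senescence and cell cycle genes had a median of -0.06, with H3K9ac longer in 7 and H3K9cr in 5, among them Ccnd2, cyclin D2 (1183 and 2186 bp against 472 and 658 bp). In the 12 regions of IL-1 family genes the median was 0.19, but the lists overlapped in all except 1. Of the kidney transporters, Slc13a2, a citrate carrier (1105 and 1409 bp against 574 and 417 bp), Slc17a1, a urate and phosphate carrier (1234 and 1567 bp against 556 and 558 bp), and Slc34a3, a phosphate carrier (1066 and 1111 bp against 599 and 663 bp), had longer H3K9cr in both lists, although 171 regions of solute carriers together had a median of -0.06 (H3K9ac longer in 38, H3K9cr in 29). Of 11 endothelial regions, H3K9ac was longer in both lists in 3, among them Cdh5, the cadherin of endothelium (1045 and 1504 bp against 550 and 410 bp), and H3K9cr in 1, at Nos3, the endothelial nitric oxide synthase (767 and 925 bp against 468 and 680 bp). Of 5 podocyte regions, 1 had longer H3K9ac, Tcf21 (2133 and 3303 bp against 910 and 1268 bp), and none longer H3K9cr. These counts of a few regions per list are descriptions beside the 18.7% and 19.2% over all regions.

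The same regions were then measured in WT UUO. Over 6971 regions with 1 peak in each list of both genotypes, the median log2 ratio was -0.03 in ACSS2-/- UUO and 0.28 in WT UUO, and the ratios of the 2 groups had a Pearson r of 0.51 across regions, which share base composition and are not independent replicates. Of 1130 regions where H3K9cr was longer in ACSS2-/- UUO, it was also longer in 78.8% in WT UUO, against 50.4% of all 6971, and H3K9ac was longer in 0.354%. Of 1467 regions where H3K9ac was longer, 17.0% had longer H3K9ac in WT UUO, against 6.17% of all, and 25.4% had longer H3K9cr. The WT UUO medians were 1573 and 1420 bp for H3K9cr and 1112 and 1267 bp for H3K9ac, and whether the medians differ between genotypes was not tested.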

How the data were processed

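H3K9cr and H3K9ac ChIP-seq peak lists of mouse kidneys were analysed, 4 from ACSS2-/- UUO and 10 from the other groups. The authors removed low-quality, organelle, poorly mapped and duplicate reads, aligned the rest with Bowtie2, called peaks per library with MACS2 and annotated them with ChIPseeker. The submitters' processing notes name mm10, and tool versions are not given in the sources used here. The deposited lists hold the chromosome, start and end of each peak and no count, score or depth. Positions were matched to RefSeq genes of GRCm38.p6 without strand.

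Overlapping peaks (1 bp or more) of the 4 lists were merged into regions. A gene window was 3 kb either side of each gene end. Sizes were peak lengths, compared as log2 ratios. Tests were exact two-sided permutations over lists, within groups where several were used, with Benjamini-Hochberg adjustment over 4 tests. Since the labels do not say that replicates are separate animals, p-values measure the spread between these lists only. By their Y chromosome and Xist peaks, the 2 ACSS2-/- UUO lists of each mark came from mice of opposite sex, so sex and replicate cannot be told apart. Members, lists and tests were chosen with earlier results of these data known. Named genes were Acss2, Il1b and Il1r1, the 12 protein-coding and 5 non-coding genes of each class with the longest peaks (by the shorter of the 2 lists' longest peaks), members of the gene lists with a single mark (all where a list had 8 or fewer, otherwise 4), the 8 regions with the most unequal lengths each way, of which the first 3 towards H3K9cr and the first 6 towards H3K9ac are printed, and the 5 longest regions of each class away from gene ends. Ptgs1, Nnmt, Calcr, Ren1, Klb, Mns1, Ksr2, Nlrp3, Casp1, Il1rn, the transporters and other genes named for peak length within a list, the microRNA genes printed and regions near gene ends were chosen after their values were seen. The T cell receptor symbol pattern also matched Tradd.

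Replicate numbers were not used for pairing in the main tests, since mouse numbers in the peak names cross them in ACSS2-/- UUO. In the other groups the replicate 2 lists of both marks carry the same mouse number, while the WT UUO replicate 1 lists carry different ones. The tests over those groups thus left this pairing out, and the replicate block is given beside them. Alternatives were the longest peaks in equal number, a 1 kb window, 50% overlap, protein-coding genes or autosomes only, the other mark absent from the whole gene or within 1 kb, single peaks, summed lengths, a replicate block, WT UUO only, shares relative to all genes, and leaving out each list. The crossed pairing and leaving out lists of the other groups were added after seeing the data. Overlap and permutation code was tested on simulated data. Python 3.11.15, numpy 2.4.6, pandas 2.3.3 and matplotlib 3.10.9 were used.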

Additional observations from a re-analysis of the deposited data

How the results depend on the processing

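Equal numbers of the longest peaks per list changed most values: 1471 H3K9cr-only and 778 H3K9ac-only regions, 387 H3K9cr-only and 509 H3K9ac-only genes, gene-end shares of 35.9% and 75.96%, a length ratio of 0.0099 (log2), and differences in the other groups of -45.7 points (H3K9ac-only genes) and -42.2 points (H3K9ac-only regions), both past the threshold with exact permutation p = 0.0185. Without H3K9cr peaks within 1 kb, 140 H3K9ac-only regions were left, and counting single peaks of replicate 1 gave 432. Protein-coding genes alone gave 266 and 38 genes, and a 1 kb window gene-end shares of 18.04% and 28.9%. Relative to all regions, the H3K9ac-only regions differed by -0.88 (log2, exact p = 0.0185). With WT UUO only, the differences were 68.6 points (H3K9cr-only genes) and 65.7 (regions), neither able to pass, and 7.35 and 7.23 for the H3K9ac-only genes and regions, which reversed. The length ratio (log2), -0.0012 in the main setting, changed sign with equal numbers of the longest peaks (0.0099), with summed lengths (0.019) and away from gene ends (0.23). It also did so without H3K9cr replicate 2 (0.079) and without H3K9ac replicate 2 (0.22). Causes were not tested beyond what fewer lists, genes or peaks bring by construction.

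The length deviations of same-numbered ACSS2-/- UUO lists correlated at r = -0.13 over 9423 regions, so the numbers were not taken to pair these lists. With the replicate number as a block, the difference for H3K9cr-only genes was 48.3 points and for regions 50.8 (exact p = 0.125, the smallest the block allows, no longer under 0.05). The difference of the lists' median log2 lengths was 0.047 (exact p = 1). It is another measure than the median ratio over regions (-0.0012) and had the opposite sign. The crossed pairing by peak names gives the same mean difference by construction. No other result moved across 0.05 with the block.

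Leaving out 1 list at a time gave 4709 to 16559 H3K9cr-only and 368 to 4804 H3K9ac-only regions, 1001 to 2261 H3K9cr-only and 124 to 598 H3K9ac-only genes, 12873 to 15598 regions and 14795 to 16109 genes with both marks, gene-end shares of 29.7% to 38.9% and 41.6% to 63.6%, a length ratio of -0.12 to 0.22 and a log2 difference in peaks per list of 0.35 to 0.86. In the other groups the differences were 28.2 to 51.7 and 27.8 to 54.2 points (H3K9cr-only genes and regions) and -20.6 to -3.87 and -20.4 to -4.41 points (H3K9ac-only genes and regions). Read depth is unknown, so an absent peak may be one that was not called.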

Other observations

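H3K9cr-only regions lay in groups more often than H3K9ac-only regions, of which there were fewer to begin with. Of the 4430, 1311 (29.6%) had another H3K9cr-only region within 10 kb, and 139 groups of 3 or more were found, the largest of 7. Both groups of 7 lay over non-coding genes, Gm39240 (chr8:107108956-107144065) and Gm32800, Gm32845 and Gm33033 (chr2:167844103-167868019). A group of 6 (chr11:54879727-54900099) had Gpx3, the glutathione peroxidase that the proximal tubule secretes into plasma, as the only gene within 5 kb, and another (chr15:67079882-67099410) St3gal1, a sialyltransferase. Groups of 5 lay at Slc45a4, Syne3, Rad51b and Myom1. Of the 235 H3K9ac-only regions, 8 (3.40%) had such a neighbour and no group of 3 was found.

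Further microRNA genes of the H3K9cr-only class were Mir193b (873 and 403 bp, in different regions), Mir6941 (1634 and 742 bp) and Mir7681 (1101 and 645 bp). The nearest H3K9ac peak lay 17617 bp outside the window of Mir6941 and 22516 bp outside that of Mir7681.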
